A study of Mus musculus with 16 samples.

Results

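The data compare knockdown of *Wdr5* (siWdr5) with knockdown of *Brca1* (siBrca1) in reprogramming mouse cells at day 3 of OSKM induction. The comparison rests on 4 of the 16 bulk RNA sequencing libraries of the series, 2 per knockdown. Of the 18990 genes in the expression table, 14028 were compared, namely those whose log2 CPM averaged 0 or more across the 16 libraries. CPM is the number of reads of a gene scaled to a fixed library total, and the values carry an n of 2 per group. The cells were wild-type primary embryonic fibroblasts of BL6 mice (MEFs), reprogrammed at passage 2. They carried a doxycycline-inducible lentiviral cassette of Oct4, Sox2, Klf4 and c-Myc (tet-STEMCCA, OSKM) and a lentivirus for rtTA, the transactivator that doxycycline switches on, each at an MOI of 1. They were transfected with 40 nM of a pool of siRNAs against *Wdr5* or *Brca1* and induced a day later in medium with 2 µg/mL doxycycline, 3 µM chiron, 0.25 µM of an inhibitor of the TGF-beta receptor ALK5, 50 µg/mL ascorbic acid and LIF. The controls that received non-targeting siRNA (nt control) and the siBard1 cells carried the same cassette in the same medium, so that in these data OSKM induction and ALK5 inhibition are common to every group. Knockdown by siRNA is partial and transient, a lentiviral pool holds cells with different insertions, and in bulk libraries fewer cells of a type and less RNA per cell cannot be told apart.

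WDR5 is a WD40-repeat protein that holds together the MLL and SET1 complexes, which methylate lysine 4 of histone H3 at promoters of active genes. BRCA1 forms a ubiquitin ligase with BARD1 and serves in homologous recombination, the repair of DNA double-strand breaks from a sister copy. In the first days of reprogramming, fibroblasts divide faster, lose their contractile and matrix programme and begin to take on an epithelial one. A direct comparison asks where the transcriptomes of cells with a partial knockdown of either gene part. A comparison of each knockdown with the nt control does not answer this.

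The antisense strands of the siRNAs listed for each target, 2 per gene, are shown because they define both groups. The remaining siRNA of each pool was not analysed here. The capitals mark the seed, bases 2 to 8 from the 5′ end, which pairs with matching sites in other transcripts.
siWdr5 1: cAUAGUUUggcuuaacugg
siWdr5 2: cACGGUUGaaaugaacggc
siBrca1 1: aAGGACAUugugaaggccc
siBrca1 2: aCUAAACCuugugcuuccc
All 4 match the coding sequence of their target in GENCODE vM21 (mm10) and no other gene over the 19 bases, and the first siWdr5 strand matches 1 of the 2 coding transcripts of *Wdr5*. On the plus strand of chromosome 2, the first *Wdr5* site lies in exon 3 (chr2:27519355-27519373) and the second spans the junction of exon 7 (chr2:27520909-27520911) and exon 8 (chr2:27525106-27525121). On the minus strand of chromosome 11, the *Brca1* sites lie in exon 4 (chr11:101535553-101535571) and exon 5 (chr11:101534000-101534018). A description of genes with seed matches follows the results.

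The 4 libraries held 14198918 to 16965653 reads, so that 3 reads, the lowest level read here, correspond to 0.187 to 0.221 CPM. The siBrca1 libraries differed more from each other than the siWdr5 libraries did. The SD of the log2 difference between replicates over the 14028 genes was 0.415 in siBrca1 and 0.3 in siWdr5, against 0.264 in the nt control and 0.331 in siBard1, and 445 genes lay more than 1 log2 unit apart in siBrca1 against 166 in siWdr5. For many lists and genes, the value without 1 siBrca1 library is given, though not for every result that changed. Values without a siWdr5 library are given mostly for totals, although they changed results too. *Trib3*, *Chac1*, *Ifit1*, *Psph* and *Apoe* did not pass the test without siWdr5 replicate 1, nor *Sema4g*, *Plin4* and *Mmp11* without replicate 2. Leaving out a library also moved the number of all genes that passed. The shares of all genes set beside the lists come from the fit with no library left out. All 10 fibroblast markers were tested, and *Col1a1*, the main fibrillar collagen of fibroblasts, held 79251 to 116425 reads in the 4 libraries. The fibroblast list itself differed between the groups, with a sum of 11800 and 12200 CPM in siWdr5 and 10300 and 9130 CPM in siBrca1. Of its 10 genes 9 had a positive difference, whereas 50.7% of all genes tested had a negative one. At adjusted p below 0.05 in limma, 4 passed as higher and 1 as lower (5.47% and 10.2% of all genes). The 3 called ones, with a log2-fold change above 1 as well (1.6% of all genes), were *Lum*, *Dcn* and *Col3a1*. These 3 return among the matrix genes, and the part of the fibroblast list in those differences was not tested.

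The targeted genes came first. *Wdr5* stood at 50.6 and 55.3 CPM in siWdr5 and at 74.3 and 68.9 CPM in siBrca1, with 132 and 130 CPM in the nt control. The groups did not overlap, and both lay far below the nt control. The difference between the knockdowns was −0.44 on the log2 scale (SE 0.10, limma, adjusted p = 0.0118, two-sided over 14028 genes). *Brca1* stood at 40.5 and 48.4 CPM in siWdr5 and at 37.5 and 19.4 CPM in siBrca1, against 82.4 and 78.0 CPM in the nt control. Replicate 1 of siBrca1 thus lay just under siWdr5 and replicate 2 far under it, with a log2 difference of 0.72 (SE 0.22, adjusted p = 0.0389). Without siBrca1 replicate 2 the *Brca1* difference fell to 0.24 (adjusted p = 0.306), and without replicate 1 it was 1.19. *Bard1*, the partner of *Brca1*, was at 13.9 and 15.3 CPM in siWdr5 and at 14.4 and 9.07 CPM in siBrca1. The difference of 0.35 did not pass the test (limma, adjusted p = 0.226). Without siBrca1 replicate 1 the *Bard1* difference was 0.69, and without replicate 2 it was 0.01. Each knockdown therefore also lay below the nt control in the transcript that the other one targets, and the groups compared differ by 1.35-fold in *Wdr5* and 1.64-fold in *Brca1*.

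At adjusted p below 0.05 and an absolute log2-fold change above 1, 664 of 14028 genes were called (4.73%). Of these, 225 (1.6%) were higher in siWdr5 and 439 (3.13%) lower. On the adjusted p alone, 2197 genes passed (15.7%), 768 (5.47%) higher and 1429 (10.2%) lower. The siWdr5 and siBrca1 libraries did not overlap for 8042 genes (57.3%), among them all 664 called. The median difference over all genes tested was −0.00621. Most called genes lay farther from siWdr5 in siBrca1 replicate 2 than in replicate 1, 180 of the 225 higher genes (80%) and 386 of the 439 lower genes (87.9%). The median difference of the lower genes was −1.14 against replicate 1 and −1.55 against replicate 2, and that of the higher genes 1.21 and 1.64. Of the 664 genes, 637 were also called without siBrca1 replicate 1 and 398 without replicate 2. The total rose to 1211 genes without replicate 1 and was 466 without replicate 2. Leaving out a siWdr5 library lowered it to 356 (replicate 1) or 411 (replicate 2).

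**Figure D1:**
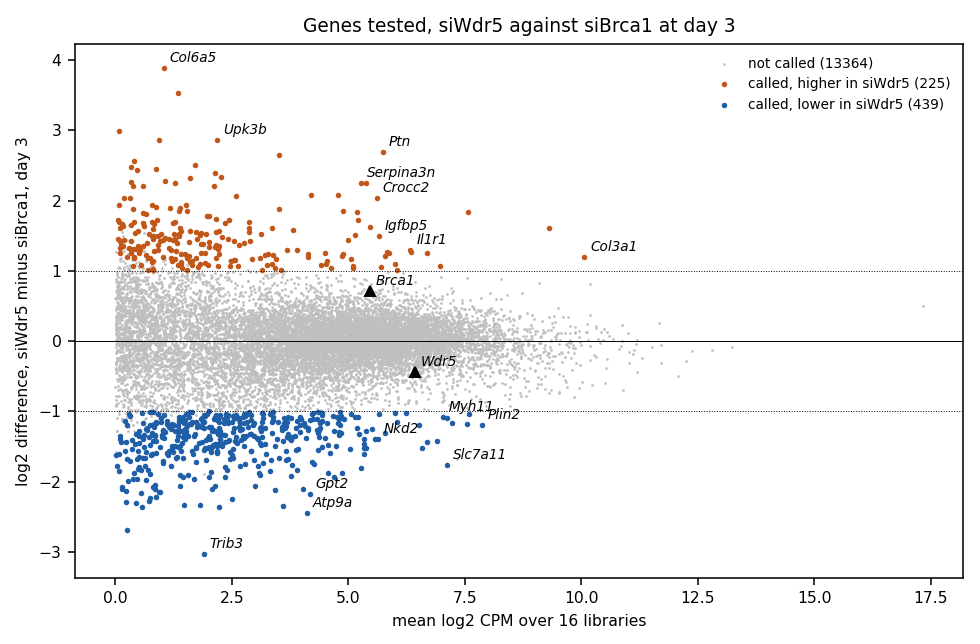
Log2 difference between siWdr5 and siBrca1 at day 3 (y axis) against the mean log2 CPM over the 16 libraries (x axis) for the 14028 genes tested, with 225 genes called higher in siWdr5 and 439 called lower. Triangles mark the targeted genes, *Brca1* at 0.72 and *Wdr5* at −0.44, both inside the dotted lines at a log2-fold change of 1.

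The 12 genes with the largest rise in siWdr5 over siBrca1 are given first. They were taken among called genes with a mean log2 CPM of 2 or more and no overlap between the groups. *Ptn*, a heparin-binding growth factor, stood at 118 and 121 CPM in siWdr5 and at 28.9 and 11.8 CPM in siBrca1 (log2-fold change 2.69, SE 0.27, adjusted p = 5.29e-05). *Serpina3n*, a secreted protease inhibitor induced in inflammation, stood at 79.6 and 86.5 CPM against 20.9 and 14.4 CPM (2.26, SE 0.16, adjusted p = 3.15e-06). *Crocc2*, a relative of the ciliary rootlet protein rootletin, stood at 78.9 and 81.6 CPM against 21.7 and 17.5 CPM (2.04, SE 0.13, adjusted p = 2.04e-06). In these 3 genes the siWdr5 replicates were nearly equal and far above every siBrca1, siBard1 and nt control library. *Serpina3n* belongs to a family of near-identical copies, and reads may be split among them.

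*Mmp13*, a collagenase, was at 16.6 and 23.1 CPM in siWdr5 and 4.49 and 2.18 CPM in siBrca1 (2.65, adjusted p = 0.000147). *Mmp3*, the stromelysin that activates other matrix proteases, was at 11.5 and 11.7 CPM against 3.53 and 2.11 CPM (2.08, adjusted p = 0.000226). *Lum*, the collagen-binding proteoglycan lumican, was at 24.6 and 29.5 CPM against 7.59 and 4.22 CPM (2.25, adjusted p = 0.000808). The nt control of *Mmp3*, at 11.3 and 7.55 CPM, lay close to siWdr5, whereas that of *Mmp13*, at 5.22 and 3.96 CPM, lay close to siBrca1, so both genes differ in which knockdown departs from the control. *Upk3b*, a uroplakin of urothelium and mesothelium, was at 19.9 and 20.7 CPM against 3.68 and 2.11 CPM (2.87, adjusted p = 0.000285). *Gdf10*, a BMP3-like ligand, was at 14.4 and 16 CPM against 4.56 and 3.72 CPM (1.88, adjusted p = 5.41e-05). The other genes of this rank were *Ehf*, an epithelial ETS factor (2.34), *Pkhd1l1*, a large membrane protein (2.20), *Slc14a1*, a urea transporter (2.08), and *Krt13*, a keratin of stratified epithelium (2.07). Their siWdr5 levels were 6.54 to 12.9 CPM and their siBrca1 levels 1.12 to 4.19 CPM.

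The 12 genes with the largest fall in siWdr5 against siBrca1 were taken under the same conditions. The abundance limit leaves out the lower-expressed *Trib3* described with the stress genes. *Atp9a*, a phospholipid flippase of endosomes, was at 7.23 and 5.58 CPM in siWdr5 and 30.5 and 39.5 CPM in siBrca1 (−2.45, SE 0.20, adjusted p = 1.21e-05), a 5.47-fold difference. *Enpp5*, a nucleotide pyrophosphatase family member, was at 4.68 and 5.11 CPM against 19.7 and 31.6 CPM (−2.35, SE 0.21, adjusted p = 2.23e-05). *Renbp*, a renin-binding epimerase of sugar metabolism, was at 7.91 and 6.44 CPM against 22.6 and 41.4 CPM (−2.10, SE 0.23, adjusted p = 0.000106). The siBard1 libraries lay between both knockdowns in all 3, at 16.2 to 20.7 CPM for *Atp9a*, 11.3 to 12.8 CPM for *Enpp5* and 14 to 16.3 CPM for *Renbp*. *Unc93b1*, which carries nucleic acid-sensing Toll-like receptors to endosomes, was at 3.56 and 5.11 CPM against 15.2 and 22.8 CPM (−2.12, adjusted p = 9.01e-05). *Mr1*, which presents vitamin B metabolites to T cells, was at 1.63 and 2.39 CPM against 6.04 and 11.9 CPM (−2.10, adjusted p = 0.000691). Also in this rank were *BC067074* (−2.25), *Shank3*, a synaptic scaffold (−2.07), *Ndrg2*, an NDRG family member (−1.94), and *Sema4g*, a semaphorin (−1.93), at 1.60 to 2.59 CPM in siWdr5 and 5.37 to 16.2 CPM in siBrca1. The remaining 3, *Chac1*, *Gpt2* and *Aldh1l2*, are taken up with the amino acid stress genes.

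**Figure D2:**
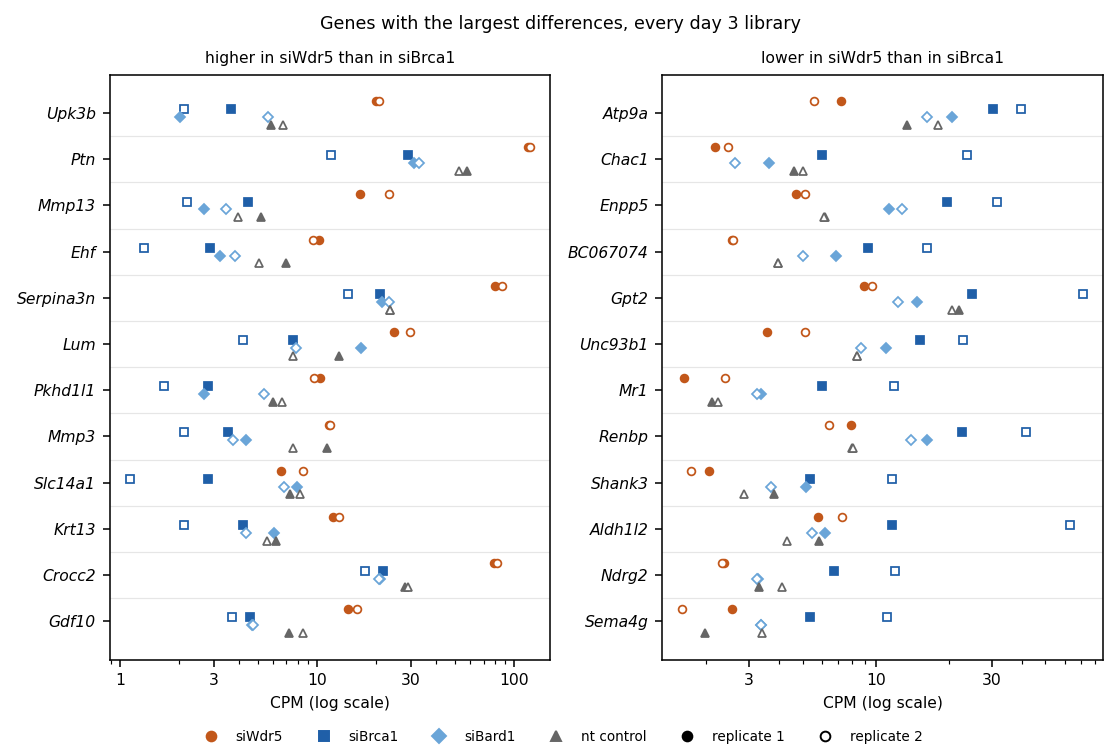
CPM on a log scale (x axis) in each of the 8 day 3 libraries for the 12 genes with the largest difference in each direction. The siWdr5 circles stand to the right of the siBrca1 squares in the left panel and to the left of them in the right panel. This holds for all 24 genes because no overlap was a condition of their choice. The open square of siBrca1 replicate 2 lies farther out than the filled one of replicate 1 in each gene.

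The genes of the ATF4 response had the lowest median difference of the 31 lists. ATF4 is the transcription factor that the integrated stress response translates when amino acids run short or proteins misfold, and it drives amino acid import, serine and one-carbon synthesis and its own feedback genes. Of 25 genes of this list tested, 11 passed at adjusted p below 0.05, all 11 lower in siWdr5, against 10.2% lower among all genes. The median difference was −0.56, with 24 of 25 genes on the lower side. Against siBrca1 replicate 1 the median was −0.26 and against replicate 2 it was −0.83. *Trib3*, a pseudokinase that restrains the response, was at 1.44 and 1.80 CPM in siWdr5 and 5.37 and 31.9 CPM in siBrca1 (−3.02, SE 0.55, adjusted p = 0.00273). *Chac1*, which degrades glutathione, was at 2.19 and 2.46 CPM against 6.04 and 23.7 CPM (−2.37, SE 0.43, adjusted p = 0.00292). *Gpt2*, the mitochondrial alanine transaminase, was at 8.97 and 9.69 CPM against 25.0 and 71.5 CPM (−2.18, SE 0.32, adjusted p = 0.000696). Both siBrca1 libraries lay above both siWdr5 libraries in each gene, and replicate 2 lay far above replicate 1. *Aldh1l2*, a mitochondrial folate enzyme outside the list, showed the same spread, at 5.80 and 7.30 CPM against 11.7 and 63.4 CPM (−2.07, adjusted p = 0.0137), and without siBrca1 replicate 2 its difference was −0.85 (adjusted p = 0.0222).

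The other 5 called members of the list are named here after their values were seen. *Slc7a11*, the cystine importer, was at 58.2 and 61.4 CPM in siWdr5 and at 128 and 319 CPM in siBrca1 (−1.76, adjusted p = 0.00104). *Atf5*, a related transcription factor, was at 42.9 and 41.3 CPM against 70.9 and 153 CPM (−1.30, adjusted p = 0.00353). *Pycr1*, an enzyme of proline synthesis (−1.02), did not pass without siBrca1 replicate 2 (adjusted p = 0.0804). *Vldlr*, a lipoprotein receptor (−1.24), *Psph*, the last enzyme of serine synthesis (−1.17), and *Pycr1* lay between 5.80 and 18.8 CPM in siWdr5 and between 9.50 and 63.4 CPM in siBrca1. When siBrca1 replicate 2 was left out, 9 of the 25 genes passed and 4 were called. Without replicate 1, 20 passed. In siWdr5 the median of the list lay 0.50 below the nt control and in siBrca1 0.28 above it on the log2 scale. The siBrca1 libraries differed in this. The list summed to 2010 CPM in replicate 1 and 2950 CPM in replicate 2, against 2340 and 2290 CPM in the nt control. By this sum replicate 1 lay below the control and replicate 2 above it. *Slc7a11* in the nt control, at 88.7 and 73.2 CPM, lay between both knockdowns, and so did *Trib3* at 3.24 and 2.65 CPM and *Chac1* at 4.62 and 5.04 CPM.

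The promoters of these genes are shown at the ATF4 motif, because the members moved together. Promoter windows run from 250 bases before to 50 after the start site, with sequence from RefSeq (GRCm38.p6). The motif TGATGNAA was searched on both strands and was chosen after the values were seen. Of the 10 promoters of the 8 called members, 5 hold it (50%), as do 8 of 25 promoters of the list (32%) and 285 of 13106 promoters of all genes tested (2.17%). In the 5 windows the capitals mark the first match in the direction of transcription, read as TGATGNAA or as its complement, and it overlaps no other motif searched.
Chac1: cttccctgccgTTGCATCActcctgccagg
Slc7a11: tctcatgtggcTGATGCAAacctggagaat
Trib3: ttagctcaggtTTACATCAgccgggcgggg
Vldlr: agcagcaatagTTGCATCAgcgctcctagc
Pycr1: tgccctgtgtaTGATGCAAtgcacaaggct
The windows lie at chr2:119351038-119351067 (plus strand), chr3:50443661-50443690 (minus strand), chr2:152344028-152344057 (minus strand), chr19:27216809-27216838 (plus strand) and chr11:120643833-120643862 (minus strand). A match is a description of the sequence and no evidence of a bound site.

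**Figure D3:**
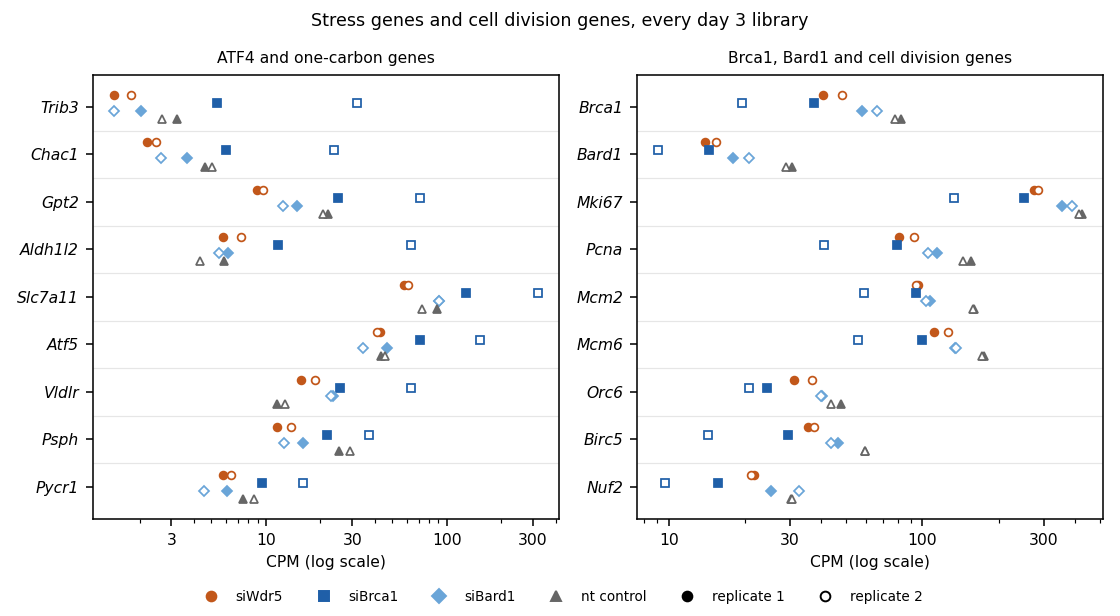
CPM on a log scale (x axis) in each of the 8 day 3 libraries for ATF4 and one-carbon genes (left) and for *Brca1*, *Bard1* and cell division genes (right). On the left the siBrca1 squares lie to the right of the siWdr5 circles in all 9 genes. On the right siBrca1 replicate 2 (open square) lies to the left of every other library in all 9 genes, while replicate 1 lies close to siWdr5 for *Bard1*, *Mcm2* and *Pcna*.

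Genes of cell division leaned the other way, and this rested on siBrca1 replicate 2. All 29 mitotic genes had a positive difference, with a median of 0.59, and 6 passed the test, all 6 higher in siWdr5 (background 5.47% higher). *Birc5*, the survivin subunit of the chromosomal passenger complex, was at 35.3 and 37.4 CPM in siWdr5 and 29.5 and 14.3 CPM in siBrca1 (0.82, adjusted p = 0.0259). *Nuf2*, a kinetochore subunit, was at 21.7 and 21.1 CPM against 15.7 and 9.63 CPM (0.80, adjusted p = 0.0135). Against siBrca1 replicate 1 the median of the list was 0.12 and against replicate 2 it was 1.05. Without replicate 2, 0 of the 29 passed in limma (4 at an unadjusted p below 0.05), and without replicate 1 all 29 did. Of 37 DNA replication genes 36 had a positive difference, with a median of 0.43 and 6 passing, among them *Orc6*, a subunit of the origin recognition complex, at 31.2 and 36.8 CPM against 24.3 and 20.8 CPM (0.59, adjusted p = 0.00755), and *Mcm6*, of the replicative helicase, at 111 and 126 CPM against 100 and 55.8 CPM (0.66, adjusted p = 0.0307). Without siBrca1 replicate 2, 1 replication gene passed, and without replicate 1, 32 did. Among the genes named, *Birc5* (adjusted p = 0.164), *Nuf2* (0.0697) and *Mcm6* (0.249) did not pass without replicate 2. *Mki67*, the proliferation marker, was at 274 and 285 CPM against 252 and 133 CPM (0.61, limma, adjusted p = 0.0548). *Pcna*, the polymerase clamp, was at 80.9 and 92.9 CPM against 79.4 and 40.9 CPM (0.60, adjusted p = 0.0668). *Mcm2* was at 95.8 and 93.9 CPM against 94.0 and 58.9 CPM (0.35, adjusted p = 0.152). None of the 3 passed with both siBrca1 libraries in the fit. Without replicate 1 the differences of *Mki67*, *Pcna* and *Mcm2* were 1.08, 1.08 and 0.69. Without replicate 2 they were 0.15, 0.13 and 0.01.

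Of 55 replication-dependent histone genes, 0 passed (1 at an unadjusted p below 0.05), with a median of 0.32. The median was −0.27 against siBrca1 replicate 1 and 1.00 against replicate 2, so its direction differed between both libraries. *Hist1h4i* (0.57, limma, adjusted p = 0.105) and *Hist1h2an* (0.70, adjusted p = 0.202) had the smallest p values of the list. Each may share reads with near-identical copies of its own histone type. Both knockdowns lay below the nt control in these lists. The median of the mitotic genes was −0.71 in siWdr5 and −1.35 in siBrca1 relative to the nt control, and that of the replication genes −0.73 and −1.19.

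Ribosome genes split in opposite directions. Cytosolic ribosomal protein genes, which encode the structural proteins of the ribosome, were lower in siWdr5 for 39 of 81 genes (background 10.2% lower), with a median of −0.39 and 72 of 81 on the lower side. This held against both siBrca1 libraries (medians −0.30 and −0.37), and 37 and 42 genes passed as lower without siBrca1 replicate 2 and replicate 1. Their summed level was 30000 and 31400 CPM in siWdr5, 37000 and 38300 CPM in siBrca1 and 38900 and 39700 CPM in the nt control, so siBrca1 lay near the control and siWdr5 below both. The 1 called member was *Rpl6l*, a copy of *Rpl6*, at 0.51 and 0.60 CPM against 1.83 and 1.54 CPM (−1.60, adjusted p = 0.0143). These genes have many processed copies, and how reads were divided among them is not given in the sources used here. Ribosome biogenesis genes, whose products process ribosomal RNA in the nucleolus, had a positive difference in 34 of 34, with a median of 0.37. Of these 15 passed, all 15 higher in siWdr5 (background 5.47% higher). Both knockdowns lay below the nt control and siBrca1 farther, with list medians of −0.43 in siWdr5 and −0.76 in siBrca1. *Gar1*, of the pseudouridylation complex, was at 26.8 and 29.7 CPM against 21.9 and 15.7 CPM (0.61, adjusted p = 0.0158), and *Nop56*, of the methylation complex, at 203 and 221 CPM against 171 and 141 CPM (0.45, adjusted p = 0.0173). Without siBrca1 replicate 2, 0 of the 34 passed in limma (9 at an unadjusted p below 0.05), with a median of 0.23. Of 76 mitochondrial ribosomal protein genes, 3 passed, *Mrps6* (0.63) and 2 lower, among them *Mrpl24* (−0.44), with a median of 0.06. The number higher was 17 without siBrca1 replicate 1, where *Mrpl24* did not pass (adjusted p = 0.0631).

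Interferon-stimulated genes, the antiviral effectors that type I interferon induces, were lower in siWdr5 than in siBrca1. Of 23 tested, 7 passed, all 7 lower (background 10.2%), and 5 were called (background 3.13%), with a median of −0.30. By list medians, siWdr5 stayed close to the nt control (log2 difference 0.10), whereas siBrca1 lay farther above it (0.44). *Ifit1*, which binds viral RNA ends, was at 0.51 and 0.60 CPM in siWdr5 (6 and 7 reads) and 3.09 and 2.32 CPM in siBrca1 (−2.27, SE 0.43, adjusted p = 0.00344). *Oasl2* was at 0.39 and 0.34 CPM against 2.35 and 0.98 CPM (−2.08, adjusted p = 0.0183), and *Ifit3* at 0.57 and 0.87 CPM against 1.91 and 2.32 CPM (−1.58, adjusted p = 0.013). *Oasl2* did not pass without siBrca1 replicate 1 (adjusted p = 0.0652). These levels are low, and the *Ifit* genes are near copies of each other. *Bst2*, a membrane tether of virions named after its values were seen, was at 10.2 and 10.9 CPM against 21.5 and 23.9 CPM (−1.10, adjusted p = 0.000438), with 26.8 and 24.8 CPM in the nt control. *Ifih1*, the RNA sensor MDA5, also named after its values were seen, was at 3.43 and 3.52 CPM against 7 and 7.73 CPM (−1.08, adjusted p = 0.00596). Without siBrca1 replicate 2 the count stayed at 7, and without replicate 1 it was 6 lower and 2 higher. Both siBrca1 libraries lay above both siWdr5 libraries in all 5 called genes, as no called gene overlapped between the groups. Unlike the list median, the 5 called genes had a lower fitted mean in siWdr5 than in the nt control. That difference passed for *Bst2* (−1.29, limma, adjusted p = 4.41e-05) and for none of the other called genes. Fitted siBrca1 means lay above the control in the called genes except *Bst2*.

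The core of the interferon-stimulated response element, GAAANNGAA on either strand, is shown in the promoters of the called members. It was found in 4 of their 5 promoters (80%), in 9 of 20 promoters of the list (45%) and in 903 of 13106 promoters of all genes tested (6.89%). The capitals mark the first match in each window, in the direction of transcription, and no other motif searched overlaps it.
Ifit1: aaactgcaggcTTCAGTTTCactttccagt
Ifit3: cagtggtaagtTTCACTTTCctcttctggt
Bst2: gggcattccagGAAAATGAAactgaaaggc
Ifih1: aagaattcgcgTTCCCTTTCctgtttctca
These windows lie at chr19:34640769-34640798 (plus strand), chr19:34583363-34583392 (plus strand), chr8:71537584-71537613 (minus strand) and chr2:62646349-62646378 (minus strand) in GRCm38.p6.

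The extracellular matrix was mixed, with single collagens and proteoglycans far higher in siWdr5. Of 33 collagen genes, 8 were higher and 4 lower (background 5.47% and 10.2%), and 4 were called, all higher (background 1.6%). *Col6a5*, a collagen VI chain, had the largest difference of all genes tested, at 9.09 and 8.76 CPM in siWdr5 and 0.87 and 0.42 CPM in siBrca1 (3.89, SE 0.34, adjusted p = 2.23e-05). *Col28a1* was at 15.1 and 16.3 CPM against 5.82 and 3.79 CPM (1.74, adjusted p = 0.00139), and *Col17a1*, a hemidesmosome collagen, at 1.82 and 1.40 CPM against 0.43 and 0.35 CPM (2.04, adjusted p = 0.00314). *Col3a1*, a fibrillar collagen named after its values were seen, was at 1290 and 1440 CPM against 727 and 482 CPM (1.20, adjusted p = 0.000419), with 780 and 769 CPM in the nt control, so siWdr5 lay above the control and siBrca1 under it. Of 41 matrix glycoproteins and proteoglycans 7 were higher and 4 lower, against the same background, with 10 lower without siBrca1 replicate 1. Besides *Lum*, the called ones were *Tnxb*, a tenascin (16.7 and 15.2 CPM against 7 and 5.97 CPM, log2-fold change 1.30, adjusted p = 0.00115), *Eln*, elastin (1.68, adjusted p = 0.011, or 0.0629 without siBrca1 replicate 2), and *Dcn*, decorin, named after its values were seen (44.7 and 60.8 CPM against 22.2 and 21.2 CPM, 1.26, adjusted p = 0.000143). Of 24 matrix proteases and inhibitors 7 were higher and 3 lower, with 1 lower without siBrca1 replicate 2 and 6 lower without replicate 1. *Plat*, the tissue plasminogen activator, was at 69.7 and 76.7 CPM against 36.5 and 25.9 CPM (1.25, adjusted p = 0.000207). *Mmp11*, the stromelysin of remodelling stroma, named after its values were seen, went the other way, at 22.3 and 20.7 CPM against 36.3 and 64.4 CPM (−1.17, adjusted p = 0.00239).

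Cytokine genes were higher in siWdr5 for 8 of 25 tested (background 5.47%) and lower for 1 (background 10.2%), with a median of 0.18, or 0.01 and 0.05 against siBrca1 replicates 1 and 2. *Ccl8*, a monocyte chemokine, was at 6.23 and 9.03 CPM against 1.61 and 1.40 CPM (2.32, SE 0.31, adjusted p = 0.000362), and its nt control libraries lay at 0.60 and 0.59 CPM, so both knockdowns lay above the control and siWdr5 more so. *Ppbp*, a platelet chemokine, showed this order too, at 11.8 and 14.3 CPM against 4.93 and 6.54 CPM (1.20, adjusted p = 0.00378), with 1.26 and 1.39 CPM in the nt control. *Il1r1*, the interleukin-1 receptor, was at 134 and 143 CPM against 62.2 and 51.3 CPM (1.29, SE 0.11, adjusted p = 2.23e-05), with 62.4 and 62.6 CPM in the nt control, close to siBrca1. *Ccl2*, named after its values were seen, was at 42.4 and 50.8 CPM against 23.9 and 24.5 CPM (0.94, adjusted p = 0.000518). The counts were 8 higher and 1 lower without siBrca1 replicate 2, and 10 higher and 3 lower without replicate 1.

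Contractile genes were lower in siWdr5 than in siBrca1. Of 29 actin and myosin genes of the contractile apparatus 16 passed, all 16 lower (background 10.2% lower), with a median of −0.45, −0.30 against siBrca1 replicate 1 and −0.62 against replicate 2. *Myh11*, smooth muscle myosin heavy chain, was at 299 and 304 CPM in siWdr5 and 551 and 732 CPM in siBrca1 (−1.07, adjusted p = 0.000318), with 96.3 and 113 CPM in the nt control. *Acta2*, smooth muscle actin, named after its values were seen, was at 2400 and 2500 CPM against 3500 and 4690 CPM (−0.73, adjusted p = 0.0126), with 671 and 832 CPM in the nt control. The *Acta2* difference passed in 12 of 19 alternatives, and not without siBrca1 replicate 2 (adjusted p = 0.0765), in the model of all 16 libraries (0.129) or with quantile normalization, where it was −0.35. Both knockdowns lay above the control and siBrca1 farther, with list medians of 1.10 in siWdr5 and 1.63 in siBrca1. Leaving out siBrca1 replicate 2, 4 of the 29 passed, and without replicate 1, 22 did. YAP and TAZ targets, which respond to cell tension, were lower for 8 of 22 and higher for 1, with 5 lower without siBrca1 replicate 2. *Ankrd1*, a stretch-induced gene, was at 46.9 and 50.6 CPM against 119 and 158 CPM (−1.49, adjusted p = 0.00015), and *Igfbp3*, on this list and the IGF list, was at 56.0 and 58.9 CPM against 38.0 and 18.8 CPM (1.10, adjusted p = 0.0056). Among 27 integrin and laminin subunits 7 were lower and 2 higher. *Itga11*, a collagen receptor, was at 10.0 and 7.24 CPM against 20.9 and 25.5 CPM (−1.44, adjusted p = 0.00025), *Lama2*, a laminin chain, at 22.2 and 22.6 CPM against 46.6 and 69.6 CPM (−1.34, adjusted p = 0.000227), and *Itga5*, the fibronectin receptor, at 345 and 359 CPM against 478 and 666 CPM (−0.68, adjusted p = 0.0126).

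Of 31 genes of the TGF-beta and BMP pathways, 5 were lower and 2 higher (background 10.2% and 5.47%). These counts were 2 and 1 without siBrca1 replicate 2 and 12 and 4 without replicate 1. *Tgfb3*, a ligand, was at 186 and 200 CPM in siWdr5 and 272 and 353 CPM in siBrca1 (−0.68, adjusted p = 0.00463), both above the nt control at 61.3 and 70.5 CPM. *Ltbp4*, which stores the latent ligand in the matrix, was at 11 and 11.5 CPM against 21.6 and 27.1 CPM (−1.11, adjusted p = 0.00129). *Tgfbi*, a secreted target of the pathway, went the other way, at 181 and 199 CPM against 99.6 and 82.2 CPM (1.07, adjusted p = 0.000135). In the FGF and Wnt list 6 of 33 were higher and 3 lower, or 4 and 4 without siBrca1 replicate 2 and 5 and 6 without replicate 1. *Sfrp2*, a secreted Wnt antagonist, was at 80.5 and 85.8 CPM against 37.9 and 14.3 CPM (1.84, SE 0.29, adjusted p = 0.00124), and *Nkd2*, an intracellular Wnt antagonist, at 45.7 and 49.2 CPM against 111 and 139 CPM (−1.39, SE 0.18, adjusted p = 0.000289). *Sp5*, a Wnt target, was at 1.69 and 1.40 CPM against 0.87 and 0.21 CPM (1.85, adjusted p = 0.0317), the last value being 1 read, and without siBrca1 replicate 2 it did not pass (adjusted p = 0.256).

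Of 25 OSKM and pluripotency genes 3 were higher and 1 lower in siWdr5 (background 5.47% and 10.2%), with a median of 0.32 and 19 positive differences. Without siBrca1 replicate 1, 9 were higher. *Sall4*, an early marker of cells on the way to pluripotency, was at 1.63 and 1.20 CPM in siWdr5 and 3.23 and 2.74 CPM in siBrca1 (−1.09, SE 0.26, adjusted p = 0.0128), both below the nt control at 8.38 and 6.87 CPM. *Mycn*, a MYC family factor, was at 3.50 and 5.05 CPM against 1.17 and 1.47 CPM (1.68, adjusted p = 0.00162), with siWdr5 near the nt control at 4.03 and 3.56 CPM. Introduced and endogenous OSKM transcripts are counted together in these values. Epithelial genes passed for 1 higher and 2 lower of 24, or 3 and 3 without siBrca1 replicate 1 and 1 and 3 without replicate 2. *Krt18*, a simple keratin, was at 3.00 and 2.86 CPM against 11.9 and 5.76 CPM (−1.5, adjusted p = 0.00383). *Cdh1*, E-cadherin, was at 12.6 and 12.7 CPM against 16 and 10.1 CPM (adjusted p = 0.995), *Epcam* at 2.19 and 2.06 CPM against 4.41 and 1.97 CPM (adjusted p = 0.402), and *Krt8*, the partner of *Krt18*, at 2.13 and 2.46 CPM against 2.5 and 3.51 CPM (adjusted p = 0.556). None of these 3 passed, and both knockdowns lay below both nt control libraries in each (29.4 CPM or more for *Cdh1*, 5.90 for *Epcam* and 3.56 for *Krt8*). Of 19 mesenchymal genes 3 were higher and 3 lower (background 5.47% and 10.2%), and the lower count was 0 in limma without siBrca1 replicate 2 (2 at an unadjusted p below 0.05), with *Cdh11*, the fibroblast cadherin, at 423 and 458 CPM against 285 and 262 CPM (0.69, adjusted p = 0.000664) and *Prrx1*, a mesenchymal homeobox factor, at 351 and 380 CPM against 452 and 549 CPM (−0.45, adjusted p = 0.0158, or 0.124 without siBrca1 replicate 2).

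Of 19 adipogenic and lipid droplet genes 7 passed, all 7 lower in siWdr5 (background 10.2%), and 5 were called (background 3.13%), with a median of −0.36. *Fabp4*, a fatty acid carrier, was at 4.18 and 4.05 CPM against 6.63 and 21.4 CPM (−1.53, adjusted p = 0.0298), and without siBrca1 replicate 2 it did not pass (adjusted p = 0.222). *Plin4*, a droplet coat protein, was at 10.4 and 8.50 CPM against 17.4 and 35.4 CPM (−1.40, adjusted p = 0.00326), and *Apoe*, apolipoprotein E, at 8.66 and 9.03 CPM against 15.6 and 31.4 CPM (−1.32, adjusted p = 0.00292). *Plin2* (−1.19) and *Klf15* (−1.18), named after their values were seen, were the other called members, and *Klf15* did not pass without siBrca1 replicate 2 (adjusted p = 0.0628). Without siBrca1 replicate 2, 3 of the 19 passed and 0 were called, and without replicate 1, 11 were lower and 3 higher. *Slc2a3*, the glucose transporter GLUT3, was at 3.99 and 4.38 CPM against 12 and 12 CPM (−1.52, SE 0.17, adjusted p = 0.000132), and both siBrca1 libraries were equal here, with 18.0 and 15.6 CPM in the nt control. It was the 1 called gene of the 27 of glycolysis and hypoxia, of which 2 were higher and 4 lower (2 and 8 lower without siBrca1 replicate 2 and replicate 1), with a median of −0.003. Of 25 cholesterol genes 4 were lower (background 10.2%), 1 without siBrca1 replicate 2 and 9 without replicate 1. They included *Pmvk* (−0.71, adjusted p = 0.0118) and *Lss* (−0.53, adjusted p = 0.0225, or 0.14 without replicate 2), enzymes of the mevalonate and lanosterol steps. Nuclear genes of oxidative phosphorylation had 3 of 74 lower, *Cox6b2* (−0.98, adjusted p = 0.000729) and *Cox7a2l* (−0.48, adjusted p = 0.0163, or 0.0586 without siBrca1 replicate 2) among them. Without replicate 1, 7 were higher and 4 lower, and without replicate 2, 1 was lower. Of the 7 mitochondrial genes tested, 0 passed (1 at an unadjusted p below 0.05), with *mt-Nd6* at −0.38 (adjusted p = 0.104) and *mt-Nd4* at 0.13 (adjusted p = 0.589).

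Of 25 imprinted and IGF axis genes, which regulate fetal growth, 8 were higher and 5 lower. *Igfbp5*, an IGF-binding protein, was at 119 and 124 CPM in siWdr5 and 56.5 and 32.6 CPM in siBrca1 (1.5, SE 0.18, adjusted p = 0.000223), both above the nt control at 28.3 and 28.0 CPM. *Mest*, a paternally expressed gene, was at 41.1 and 44.1 CPM against 24.6 and 13.8 CPM (1.21, adjusted p = 0.00175), with siWdr5 near the nt control (46.5 and 47.4 CPM). *Cdkn1c*, the cell cycle inhibitor p57, named after its values were seen, was at 24.9 and 25.0 CPM against 12 and 12.3 CPM (1.04, adjusted p = 0.000441). These differences were as large without siBrca1 replicate 2 for *Cdkn1c* (1.06) and smaller for *Igfbp5* (1.10) and *Mest* (0.79). Of 23 p53 targets 2 were higher and 3 lower (background 5.47% and 10.2%). Without siBrca1 replicate 2, 1 passed, as lower, and without replicate 1, 2 were higher and 5 lower. *Pmaip1*, the apoptosis gene NOXA, was at 35.6 and 34.1 CPM against 55.4 and 68.8 CPM (−0.82, adjusted p = 0.000755), and *Cdkn1a*, the cell cycle inhibitor p21, at 480 and 511 CPM against 656 and 659 CPM (−0.41, adjusted p = 0.0213, or 0.0524 without siBrca1 replicate 2). Of 33 Hox genes 1 passed, *Hoxd8* (−0.89, adjusted p = 0.00622), and *Hoxb7* had the next p (−0.55, adjusted p = 0.0766). Of 15 AP-1 and immediate early genes 3 were lower and 1 higher, with *Fosb* at −1.20 (adjusted p = 0.0178, or 0.074 without siBrca1 replicate 1) and *Egr3* at 1.03 (adjusted p = 0.0374, or 0.145 without replicate 2).

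**Figure D4:**
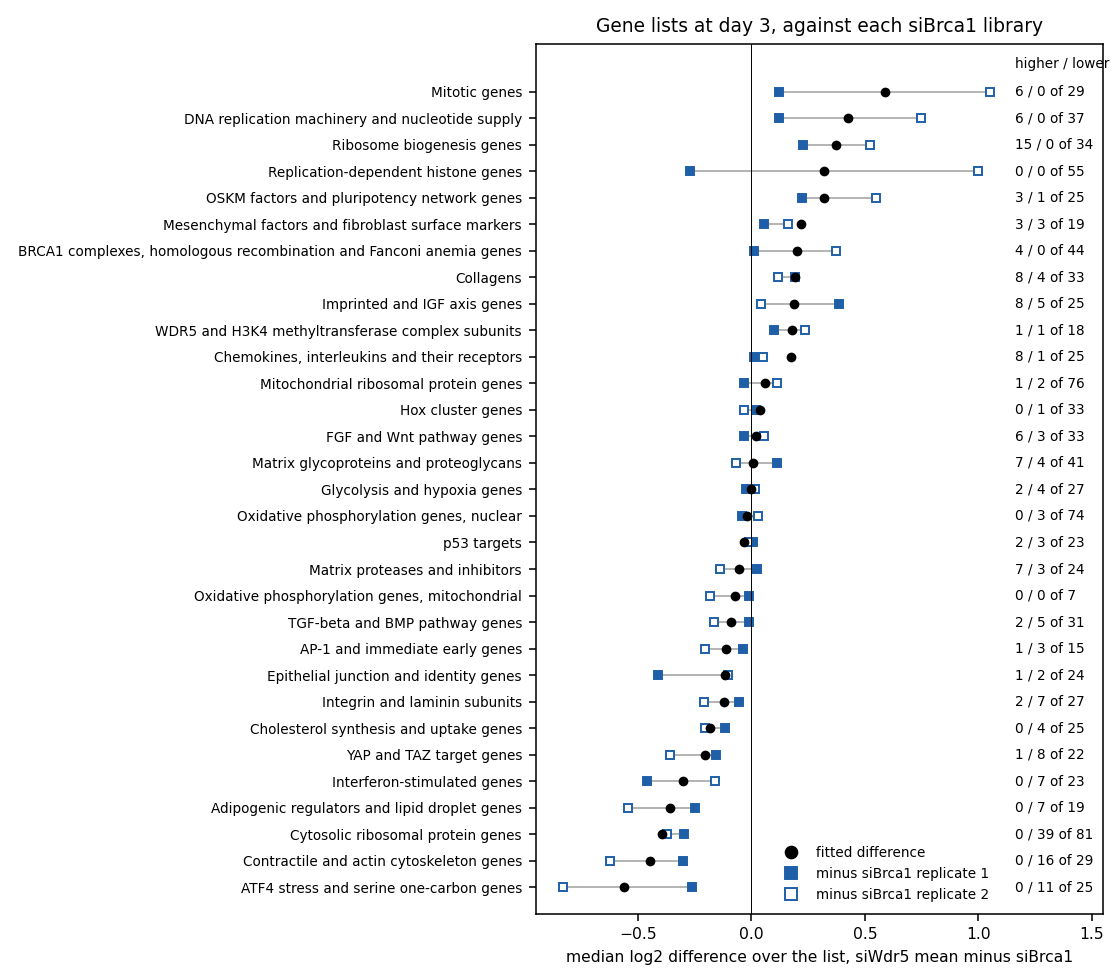
Median log2 difference of each of the 31 gene lists (x axis) between siWdr5 and siBrca1 as fitted (circles) and between the siWdr5 mean and each siBrca1 library (squares, open for replicate 2), with the number of genes higher and lower at adjusted p below 0.05 of those tested. Mitotic genes span 0.12 to 1.05 and ATF4 genes −0.26 to −0.83 between both siBrca1 libraries, whereas cytosolic ribosomal protein genes lie at −0.30 and −0.37.

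Of the 18 genes of WDR5 and the H3K4 methyltransferase complexes 1 was higher and 1 lower, *Setd1b*, a catalytic subunit, at 117 and 104 CPM in siWdr5 and 86.0 and 71.7 CPM in siBrca1 (0.49, SE 0.12, adjusted p = 0.0121, or 0.0657 without siBrca1 replicate 2), and *Wdr5* itself. Without siBrca1 replicate 1, 6 were higher. The partners of WDR5 did not pass, with *Rbbp5* at −0.10 (adjusted p = 0.599), *Ash2l* at 0.19 (adjusted p = 0.263) and *Dpy30* at 0.46 (adjusted p = 0.108). *Dpy30* was at 44.2 and 48.6 CPM in siWdr5 and 43.4 and 26.2 CPM in siBrca1, both under the nt control at 99.8 and 93.6 CPM. Its difference was 0.83 without siBrca1 replicate 1 and 0.10 without replicate 2. Of 44 genes of BRCA1 complexes, homologous recombination and the Fanconi pathway 4 passed, all 4 higher in siWdr5 (background 5.47%), with a median of 0.20, 0.01 against siBrca1 replicate 1 and 0.37 against replicate 2. *Fancm*, a DNA translocase, was at 26.4 and 30 CPM against 21.4 and 15.5 CPM (0.63, adjusted p = 0.0156), and *Rpa2*, a single-strand DNA binding subunit, at 26.5 and 25.9 CPM against 21.5 and 12.7 CPM (0.66, adjusted p = 0.0301). *Brip1* (0.53), *Rbbp8* (0.29) and *Palb2* (0.32) did not pass in limma, with adjusted p of 0.207 to 0.438. Their differences were 1.10, 0.41 and 0.77 without siBrca1 replicate 1, and −0.04, 0.18 and −0.14 without replicate 2. The number that passed was 1 without siBrca1 replicate 2, where *Fancm* (adjusted p = 0.0947) and *Rpa2* (0.248) did not, and 20 without replicate 1.

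Markers of other cell types were counted in the same libraries. Of the macrophage markers in the table, *Adgre1*, *C1qb* and *Tyrobp* held 0 to 8 reads, *Csf1r* 78 and 80 reads in siWdr5 and 45 and 38 in siBrca1, *Cd68* 75 and 78 against 101 and 156, and *Lyz2* 25 and 42 against 73 and 27, so the summed level of the list was 12.1 and 14.4 CPM in siWdr5 and 18.5 and 17 CPM in siBrca1. The endothelial markers *Pecam1* and *Cdh5* held 0 to 5 reads. The sum of that list, 58.4 and 64.9 CPM against 49.1 and 30.1 CPM, consisted mostly of *Tek*, with 818 and 858 reads against 548 and 310. The keratinocyte list was low and summed to 8.28 and 8.32 CPM in siWdr5 against 3.18 and 4.69 CPM in siBrca1. *Trp63*, the basal epithelial factor, was at 72 and 67 reads against 12 and 26 (1.70, limma, adjusted p = 0.00472), and *Krt14* at 17 and 19 reads against 0 and 3. *Krt10*, at 22 and 20 reads against 17 and 20, and *Krt15*, at 3 and 7 against 2 and 6, were close in both groups. The defining *Krt5* and *Krt1* held 0 to 4 reads. *Trp63* and *Krt14* were higher in siWdr5, as were *Krt13*, *Ehf* and *Col17a1* above, and the part of the keratinocyte list in those differences was not tested. Of the neural list *Tubb3*, a tubulin of neurons, was at 67.4 and 68.6 CPM against 26.7 and 15.9 CPM (1.72, adjusted p = 0.000106), while *Stmn2* had fewer reads in siWdr5 (241 and 241 against 360 and 425). *Myh3*, embryonic muscle myosin, had 40 and 35 reads against 11 and 8 (1.64, adjusted p = 0.00472). The platelet list summed to 8.50 and 7.64 CPM against 7.27 and 8.85 CPM, and *Alas2*, the erythroid marker tested, had 37 and 20 reads against 13 and 13. *Trp63*, *Tubb3* and *Myh3* are named here after their values were seen.

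The nt control and siBard1 libraries, which do not enter the contrast, place the differences. Of the 225 genes higher in siWdr5, the nt control mean lay between both knockdowns for 130 (57.8%), above both for 50 and below both for 45. Of the 439 lower genes it lay between for 309 (70.4%), below both for 106 (24.1%) and above both for 24. Over all genes tested it lay between for 20.4%, a share that a wide gap between the knockdowns raises by construction. Among the lower genes the nt control lay closer to siWdr5 for 318 of 439, among the higher genes for 111 of 225 and among all genes for 8842 of 14028. The siBard1 mean lay between for 169 of the 225 (75.1%) and 400 of the 439 (91.1%), against 32.8% of all genes. *Enpp5* shows the pattern of the lower genes, with siWdr5 at 4.68 and 5.11, the nt control at 6.20 and 6.12, siBard1 at 11.3 and 12.8 and siBrca1 at 19.7 and 31.6 CPM. *Ptn* shows that of the higher genes, with siBrca1 at 28.9 and 11.8, the nt control at 57.7 and 52.4 and siWdr5 at 118 and 121 CPM, but siBard1 at 31.0 and 33.0 CPM lay on the side of siBrca1.

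At day 6, in other libraries of the same knockdowns, the difference was smaller. In the day 6 fit 120 genes were called (0.855%), 72 higher and 48 lower, and 400 passed on the adjusted p alone (2.85%). The day 6 count rested on both siWdr5 libraries, since 5 genes were called without replicate 1 and 2 without replicate 2. After median centring the split was 63 higher and 67 lower. Of the 225 genes called higher at day 3, 175 had the same sign at day 6, 29 of them at adjusted p below 0.05, with a median of 0.59 against 1.42 at day 3. Of the 439 called lower, 335 had the same sign and 11 passed, with a median of −0.28 against −1.34. Since these genes were chosen for a large day 3 difference, a smaller one at day 6 is favoured by the choice itself. The change of the difference between the days was tested in a model of all 16 libraries and passed for 1303 genes (9.29%, 6.94% upward), among them 48 of the 225 and 184 of the 439. With the fold threshold added it called 489 genes (3.49%), 343 upward (2.45%) and 146 downward, or 237 and 185 after median centring and 195 and 178 after quantile normalization. Without 1 library this total was 964 (siBrca1 replicate 1, day 3), 121 (siBrca1 replicate 2, day 3), 225 and 137 (siWdr5 replicates 1 and 2, day 3) or 37 (siWdr5 replicate 2, day 6). *Serpina3n* kept its difference (2.26 at day 3, 2.08 at day 6, adjusted p at day 6 = 0.0057), as did *Gdf10* (1.88 and 1.78, adjusted p = 0.0075) and *Sfrp2* (1.84 and 1.93, adjusted p = 0.0052). *Mmp13* went from 2.65 to −0.14 and *Lum* from 2.25 to −0.14, and for both the change between the days passed (limma, adjusted p = 0.0139 and 0.0184). Their siBrca1 libraries at day 6 lay on either side of siWdr5. *Mmp13* was at 28.4 and 27.8 CPM in siWdr5 and 17.4 and 55.4 CPM in siBrca1. *Lum* was at 108 and 142 CPM against 91.8 and 202 CPM. *Atp9a* went from −2.45 to −0.49 (adjusted p of the change 0.00553). *Ifit1* stayed at −2.78 at day 6 (adjusted p = 0.0366), and *Trib3* was at −0.65 (adjusted p = 0.207). By day 6 the transcripts of *Wdr5* and *Brca1* differed by −0.16 (adjusted p = 0.49) and 0.09 (adjusted p = 0.719) between both groups.

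**Figure D5:**
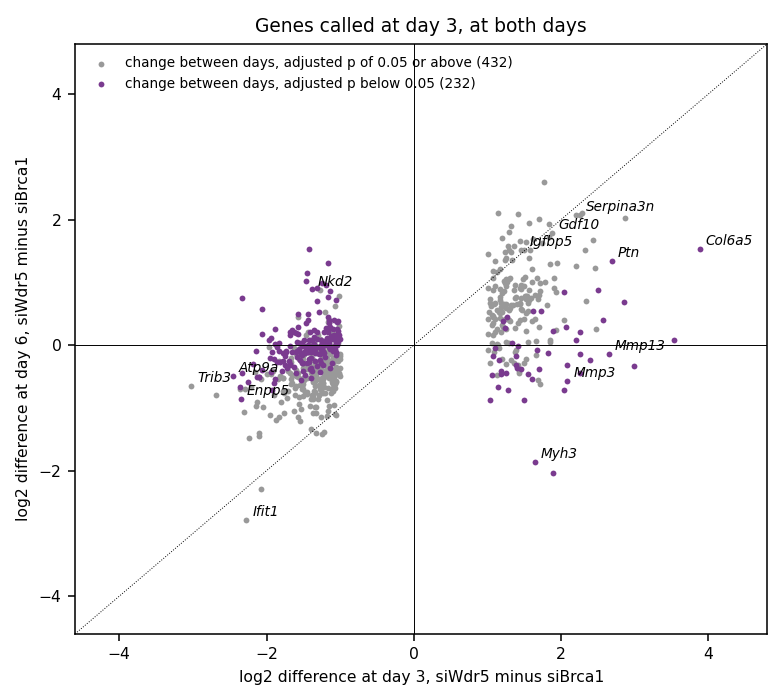
Log2 difference between siWdr5 and siBrca1 at day 6 (y axis) against that at day 3 (x axis) for the 664 genes called at day 3, with the dotted line marking equal differences. Most points lie nearer to 0 at day 6, and the purple points passed the test of the change between the days, 48 of the higher and 184 of the lower genes.

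Matches to the siRNA seeds were counted in 3′ UTRs of GENCODE vM21. Of 12565 genes with an annotated 3′ UTR, 1839 (14.6%) hold a match to a seed of the siWdr5 antisense strands shown above and 2432 (19.4%) to one of the siBrca1 strands. Genes with a siWdr5 match but no siBrca1 match had a median difference of 0.003, those with a siBrca1 match but no siWdr5 match −0.0197, and those with neither −0.0157. Of the genes with a siWdr5 match 1.63% were called higher and 2.34% lower, and of those with a siBrca1 match 1.44% and 2.88%, against 1.64% and 3.37% of all 12565. The UTRs with a match were longer, with medians of 2597 and 2565 bases against 1233 bases for all.

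In promoters, the AP-1 motif TGACTCA was found on either strand in 10.6% of the 208 promoters of genes called higher in siWdr5, in 3.46% of the 434 promoters of genes called lower and in 3.8% of all 13106. It was also in 10.7% of the contractile list and 15% of the interferon list, 3 promoters each, and both lists were lower in siWdr5. In the ATF4 list it was in 4%, and in the replication and mitotic lists in 0. The motif is shown in genes of the highest rank that hold it, because 2 of them are the matrix proteases described above. Promoters of a single chromosome were left out of this display, so it may not be complete. The capitals mark the first match, the motif or its complement.
Mmp13: ccccaaagtggTGACTCAtcactatcatgc
Mmp3: ggaagcaattaTGAGTCAgttttcgggtga
Krt13: actgttacttgTGACTCAgttgctataacc
The windows lie at chr9:7272468-7272497 (plus strand), chr9:7445765-7445794 (plus strand) and chr11:100120742-100120771 (minus strand) in GRCm38.p6. CCAAT was in 80.8% of promoters of the mitotic list and 55.9% of the replication list against 37.6% of all. The E2F motifs TTTGGCGC and TTTCCCGC were each in 17.6% of the replication list against 0.916% and 1.95% of all. Both were in 0 of the 26 promoters of the mitotic list. GGAATG, the TEAD core, was in 39.3% of the contractile list against 12.3% of all. Among the called genes the shares were close to those of all genes for CCAAT (33.2% of the higher and 33.4% of the lower) and higher for GGAATG (16.8% and 15%) and GAAANNGAA (8.17% and 9.22%).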

How the data were processed

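Total RNA (200 ng, depleted of ribosomal RNA) was sequenced paired-end by the authors, reads were aligned with STAR 2.5.2b to mm10, and log2 CPM values were computed with edgeR 3.20.9. The deposited table holds log2 CPM for 16 libraries and 18990 genes. The counter and the annotation are not given in the sources used here. The authors' test of read counts was replaced by limma on the deposited log2 values, since the table holds no counts as such. All values came out as whole reads (100%, within 0.01 of a read), which gave 11169738 to 26832534 reads per library. CPM in the text is 2 to the power of the deposited value and includes the small prior.

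The 14028 genes whose log2 CPM averaged 0 or more were fitted with limma 3.58.1 in R 4.3.3 over the 8 libraries of a day, with 1 mean per group and a variance trend. P-values are two-sided and Benjamini-Hochberg adjusted over all genes tested, and a gene was called when the adjusted p was below 0.05 and the log2-fold change exceeded 1 in size. The labels give each group 2 biological replicates, and the study calls them independent. The change between days was tested in a model of all 16 libraries. Lists are described by counts and medians, with no test. The genes compared, the lists and the tests were chosen with earlier results of these data known. The genes named are the targeted genes, the 12 called genes of each direction with the largest difference (mean log2 CPM of at least 2, no overlap between groups, no provisional symbols), up to 3 called members of each list or otherwise the 2 with the smallest adjusted p, further subunits of both complexes and genes that the study names. Others are marked as named after their values were seen, and 1 gene of this rule is not reported here. At day 3, same-numbered replicates of siWdr5 and siBrca1 did not deviate together (r = 0.0178). The steps were tested on simulated data. Alternatives were a replicate block, other sets of libraries, filters, pseudocounts (1 and 0.1 CPM), scalings, no variance trend, no fold threshold, limma-voom on the recovered reads and leaving out replicates. Of the promoters, 10195 of 14026 gene symbols matched RefSeq (GRCm38.p6).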

Additional observations from a re-analysis of the deposited data

Results flagged for a closer look

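For 42 of the genes named, the difference between siWdr5 and siBrca1 changed between day 3 and day 6 by the test of that change itself (model of all 16 libraries, limma, adjusted p below 0.05). Values are the day 6 difference minus the day 3 difference on the log2 scale. Most of these genes were named for a large day 3 difference, which is part of the change tested, so a move toward 0 is favoured by the choice. For the genes among them that were higher in siWdr5 at day 3, the change was −3.51 for *Myh3*, −2.79 for *Mmp13*, −2.66 for *Mmp3*, −2.40 for *Slc14a1*, −2.39 for *Lum*, −2.35 for *Col6a5*, −1.91 for *Cdkn1c*, −1.78 for *Krt13*, −1.76 for *Mycn*, −1.35 for *Ptn*, −1.21 for *Orc6*, −1.20 for *Crocc2*, −1.18 for *Tubb3*, −1.07 for *Nuf2*, −0.97 for *Pcna* and −0.82 for *Dcn*. For those lower in siWdr5 at day 3, the change among enzymes, transporters and scaffolds was 2.64 for *Aldh1l2*, 1.96 for *Atp9a*, 1.88 for *Gpt2*, 1.67 for *BC067074*, 1.67 for *Shank3*, 1.61 for *Unc93b1*, 1.60 for *Renbp*, 1.59 for *Mr1*, 1.51 for *Ndrg2*, 1.5 for *Enpp5*, 1.09 for *Pycr1* and 0.62 for *Lss*. Among adhesion, contractile and signalling genes it was 2.27 for *Nkd2*, 1.94 for *Itga11*, 1.57 for *Ankrd1*, 1.40 for *Mmp11*, 1.25 for *Tgfb3*, 1.10 for *Lama2*, 1.05 for *Myh11* and 0.96 for *Itga5*. Among lysosomal and antigen presentation genes it was 2.06 for *H2-M3*, 1.89 for *H2-K1*, 1.56 for *Gm2a*, 1.44 for *Ctsz*, 1.29 for *Gaa* and 1.20 for *Gpnmb*. The change passed in 18 of 18 alternative settings for *Atp9a*, *Cdkn1c*, *Crocc2*, *Ctsz*, *Gm2a*, *H2-K1*, *Mmp3* and *Orc6*, and in 17 of 17 for *Myh3*. It passed in 6 of 18 for *Lss* and 7 of 18 for *Shank3*.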

How the results depend on the processing

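At day 3 the 664 calls became 342 with a mean log2 CPM of 2 or more (fewer genes tested), 374 on log2(CPM + 1) and 2197 with no fold threshold, and ranged from 356 to 1211 when 1 library was left out. At day 6 the 120 calls became 202 in a model of 4 libraries, 251 in a model of all 16, 400 with no fold threshold and 0 with no variance trend in limma (3351 at an unadjusted p below 0.05, smallest adjusted p 0.0891, against 133 calls with limma-voom), and ranged from 2 to 153 without 1 library. The 489 calls for the change between days became 266 in a model of 8 libraries and 1303 with no fold threshold. They were 964 and 121 without siBrca1 replicates 1 and 2 of day 3, 225 and 137 without siWdr5 replicates 1 and 2 of day 3, and 37 without siWdr5 replicate 2 of day 6. Of the 128 genes named, 110 passed, 65 to 117 without 1 library, and 58 passed in each of 19 alternatives. The cause was not tested.

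With the replicate block the calls were 692 at day 3, 191 at day 6 and 568 for the change between days. What same-numbered libraries share is not given in the sources used here. The r of 0.0178 between siWdr5 and siBrca1 covers day 3 only, and day 6 was not examined.

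Of the genes named, 6 changed sign. *Cdh1* was at 0.0366 with median centring, 0.0720 with quantile normalization and 0.00307 with limma-voom. Leaving out 1 library, it ranged from −0.34 to 0.33, *Epcam* from −1.06 to 0.11, *Brip1* from −0.0397 to 1.10, *Palb2* from −0.14 to 0.77, *Hist1h2an* from −0.0784 to 1.48 and *mt-Nd4* from −0.0400 to 0.30. None of the 6 passed the test in the 8-library model. With 2 libraries per group, a low gene at 3 reads is not resolved from 0 at these depths.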

Other observations

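Lysosomal genes were lower in siWdr5 than in siBrca1. The list of lysosomal enzymes and membrane proteins was compiled after the called genes had been seen, so its count is a description. Of 79 tested, 34 passed in limma at adjusted p below 0.05, all 34 lower (10.2% of all genes were), and 12 were called (3.13% of all genes were called lower), with a median of −0.42 and 75 of 79 on the lower side. *Gm2a*, the activator of ganglioside breakdown, was at 17.9 and 17.7 CPM in siWdr5 and 46.8 and 56 CPM in siBrca1 (−1.53, adjusted p = 2.23e-05). *Ctsz*, a cathepsin, was at 58.5 and 64.6 CPM against 142 and 193 CPM (−1.43, adjusted p = 4.97e-05), and *Gaa*, the glycogen-degrading glucosidase, at 129 and 134 CPM against 267 and 331 CPM (−1.18, adjusted p = 0.000119). *Gaa* in the nt control, at 131 and 145 CPM, lay at the level of siWdr5. *Fuca2* (−1.76), *Rragd*, a GTPase of nutrient signalling at the lysosome (−1.53), and *Gpnmb* (−1.42) were also called. The list's median lay 0.33 above the nt control in siWdr5 and 0.80 above it in siBrca1. The number that passed was 26 when siBrca1 replicate 2 was left out and 57 without replicate 1. At day 6 the median was 0.05.

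Genes of MHC class I antigen presentation, likewise listed after the called genes had been seen, passed for 8 of 21, all 8 lower in siWdr5, against the same shares of all genes, with 5 called and a median of −0.53. *H2-K1*, a classical class I heavy chain, was at 8.16 and 7.44 CPM against 24.3 and 34 CPM (−1.88, adjusted p = 8.08e-05), with 12.4 and 12.2 CPM in the nt control. *Tap2*, of the peptide transporter, was at 5.17 and 5.78 CPM against 9.13 and 14.8 CPM (−1.09, adjusted p = 0.00839, or 0.0591 without siBrca1 replicate 2), and *H2-M3* was at 0.70 and 0.54 CPM against 2.13 and 2.67 CPM (−1.97, adjusted p = 0.00315). Class I genes are similar in sequence and may share reads. The count was 6 lower without siBrca1 replicate 2.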
